A study of Rattus norvegicus with 32 samples.

Results

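Chemokines are small secreted proteins that guide leukocytes through receptors coupled to heterotrimeric G proteins. Ligands of the CC class act on the CCR receptors and those of the CXC class on the CXCR receptors, XCL1 acts on XCR1, and atypical receptors (ACKR) bind ligand without the usual G protein signal and take it up. Some ligands are made in quantity by activated macrophages and draw in monocytes, neutrophils or T cells, while others are made constantly by stromal cells of lymphoid organs and hold lymphocytes in place. The genes studied here were all those whose single symbol on the array began with Ccl, Ccr, Cxcl, Cxcr, Xcl, Xcr or Ackr followed by a number, with the probe set of the highest mean standing for a gene. The rule found 48 genes of 14557 with a symbol, made up of 28 ligands, 17 receptors and 3 atypical receptors. The genes *Cx3cl1* and *Cx3cr1* fall outside it, and members of these families that the array annotation does not give under such a symbol were not analysed here.

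The data are 32 Affymetrix Rat Gene 2.1 ST arrays, with 2 per group. The tissues (hippocampus, striatum, pituitary gland, olfactory bulbs and spleen) came from adult female rats, not perfused, that were homozygous mutant (KO, *Csf1r*-/-), heterozygous (HET, *Csf1r*+/-) or wild type (WT, *Csf1r*+/+) for *Csf1r*, the receptor through which CSF1 and IL-34 maintain macrophages. The mutation is a selection cassette with EGFP in the first coding exon, introduced in Dark Agouti embryonic stem cells and carried in every tissue from conception, on a background of DA and SD strains. The other 2 arrays held BMDM, macrophages grown for 7 d in recombinant human CSF1 from bone marrow of adult male DA rats that were WT. The arrays had been normalized as a set of 8 (spleen and BMDM) and a set of 24 (brain and pituitary), and comparisons were made only within a set. Values are log2 intensities. The brightness of a probe set depends on its sequence, so levels are compared between arrays and not between genes. Of the 48 genes, 43 reached an intensity of 20 (4.32 on the log2 scale) on at least 1 KO, WT or BMDM array of the spleen set and 29 on at least 1 array of the brain set. *Ccl26*, *Ccl28* and *Ccr10* reached it in neither set.

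Several arrays went against their labels, and each keeps its label here. The arrays labelled olfactory bulbs are called bulb-labelled and those labelled pituitary gland pituitary-labelled. *Csf1r* itself lay at 3.28 to 4.81 in KO spleens, 7.05 to 9.75 in HET spleens and 10.18 to 10.37 in WT spleens, and at 2.73 to 3.96 in the KO, 7.59 to 8.62 in the HET and 7.63 to 9.12 in the WT arrays of the brain set. KO 2 and HET 2 of the spleen carried thymus transcripts. Their mean over 8 measured thymus genes was 9.13 (KO 2) and 9.06 (HET 2), against 4.37 to 4.49 on the other spleen arrays, and their mean over 3 spleen stroma genes was 4.24 and 3.88, against 6.14 to 7.13. The 6 bulb-labelled arrays had a mean of 10.45 to 10.91 over 7 anterior pituitary genes, which lay at 5.24 or below on all other arrays of the set, and the 6 pituitary-labelled arrays had 9.03 to 9.28 over 7 genes of olfactory bulb interneurons. Hippocampus KO 2 and WT 2 held choroid plexus transcripts (9.61 and 9.53), and KO 2, HET 1 and HET 2 of the pituitary-labelled arrays held olfactory mucosa transcripts to differing degrees (7.78, 7.15 and 6.08, against 4.54 to 5.80 on the other 3). Striatum WT 2, KO 1 and HET 2 had a higher mean over 5 genes of cortical projection neurons (8.61, 8.01 and 7.84) than the other 3 striatum arrays (6.75 to 7.05).

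BMDM were set against WT spleens to see which chemokine genes macrophages in CSF1 express at a higher or lower level than the whole organ. The BMDM came from male DA rats and the spleens from females of mixed strain, so cell type, culture, sex and strain cannot be told apart. Of the 43 measured genes, 11 were higher and 17 lower in BMDM at an adjusted p under 0.05 (limma, Benjamini-Hochberg), when 18.1% of all 9397 tested genes were higher and 24.7% lower. The genes that rose were mostly inflammatory ligands. Of 9 measured inflammatory CC ligands, *Ccl2*, *Ccl3*, *Ccl4*, *Ccl7*, *Ccl9* and *Ccl12* were higher and *Ccl5* and *Ccl24* lower, with a median difference of 4.29 for the group on the log2 scale and of -0.20 for all genes. In BMDM *Ccl24* was at 4.20 and 4.25, under the intensity of 20, and it entered the test through the WT spleens, where it was high. The largest rise was that of *Ccl12*, a ligand of CCR2 in the mouse, which had 10.65 and 9.26 in BMDM, against 1.83 and 1.99 in WT spleens (log2 difference 8.05, SE 0.466, adjusted p = 8.52e-04). *Ccl7*, a monocyte attractant, had 11.55 and 11.52 in BMDM and 4.39 and 4.69 in WT spleens (6.995, SE 0.216, adjusted p = 5.86e-04). In both genes every BMDM array stood far above every spleen array. *Ccl12* was under the intensity of 20 on all spleen arrays, so it entered the test through BMDM, where it was high, and its difference and rank are taken against values under that level.

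*Ccl9*, a rodent ligand of CCR1, had 10.41 and 10.08 in BMDM, against 4.92 and 4.59 in WT spleens (5.49, SE 0.404, adjusted p = 0.00128). *Ccr1* itself had 9.93 and 9.67 in BMDM and 5.14 and 5.09 in WT spleens (4.69, SE 0.589, adjusted p = 0.00412), so ligand and receptor were both high in the cultured cells. *Ccl2*, the main monocyte attractant, had 11.51 and 11.55 in BMDM and 6.87 and 6.95 in WT spleens, and *Ccl3*, a further CCR1 ligand, had 11.36 and 10.84 in BMDM and 6.90 and 6.72 in WT spleens. The BMDM and spleen values of these genes did not overlap. Of the 3 measured ligands of the neutrophil receptor CXCR2, *Cxcl1* and *Cxcl2* rose and *Cxcl6* did not pass the test. *Cxcl1* and *Cxcl2* too were under the intensity of 20 on all spleen arrays and entered the test through BMDM. *Cxcl2* had 8.51 and 6.68 in BMDM, against 2.48 and 2.33 in WT spleens (5.19, SE 0.611, adjusted p = 0.00361), with the BMDM arrays unlike each other. *Cxcr4*, the receptor of CXCL12, and *Ccl17*, a ligand of CCR4, also rose, by 2.28 and 2.03.

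Of the 17 genes lower in BMDM, 5 were among 10 measured homeostatic and lymphoid ligands, 3 among 9 CC receptors, 3 among 6 CXC and XC receptors and 2 among 3 ligands of CXCR3. *Cxcl13*, which draws B cells into follicles, had 2.94 and 3.96 in BMDM and 11.55 and 11.44 in WT spleens (-8.04, SE 0.797, adjusted p = 0.00235). Its receptor *Cxcr5* had 2.67 and 3.14 in BMDM and 8.74 and 8.64 in WT spleens (-5.78, SE 1.38, adjusted p = 0.0228). *Ccl21*, the stromal ligand of CCR7, had 3.83 and 3.42 in BMDM and 10.11 and 10.56 in WT spleens (-6.71, SE 0.538, adjusted p = 0.00147). BMDM values of all 3 genes lay under the intensity of 20, where differences between arrays carry little information. *Ccr1l1*, a receptor gene within the annotated span of *Ccr3* on the rat map, had 2.87 and 2.28 in BMDM and 8.01 and 7.46 in WT spleens (-5.16, SE 0.617, adjusted p = 0.00371). *Ackr3*, the scavenger of CXCL12, had 3.71 and 4.19 in BMDM and 7.91 and 8.38 in WT spleens (-4.20, SE 1.05, adjusted p = 0.0267). BMDM values of *Ccr1l1* and *Ackr3* also lay under the intensity of 20. These genes, like *Cxcl13*, *Cxcr5* and *Ccl21*, entered the test through the spleens, where they were high. *Ccr1* was called higher in BMDM and *Ccr1l1* lower. The T cell marker list had a mean of 4.09 and 4.17 in BMDM, against 8.12 to 8.57 in WT spleens, and the B cell list 3.91 and 3.94, against 9.42 to 9.66. Their part in these falls was not tested. With 1 BMDM or WT array left out, between 15 and 19 genes were called in place of 28, against 10.2% to 21.2% of all genes, and *Cxcr5* (adjusted p = 0.0961 to 0.117) and *Ackr3* (0.102 to 0.131) passed in no such fit.

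**Figure D1:**
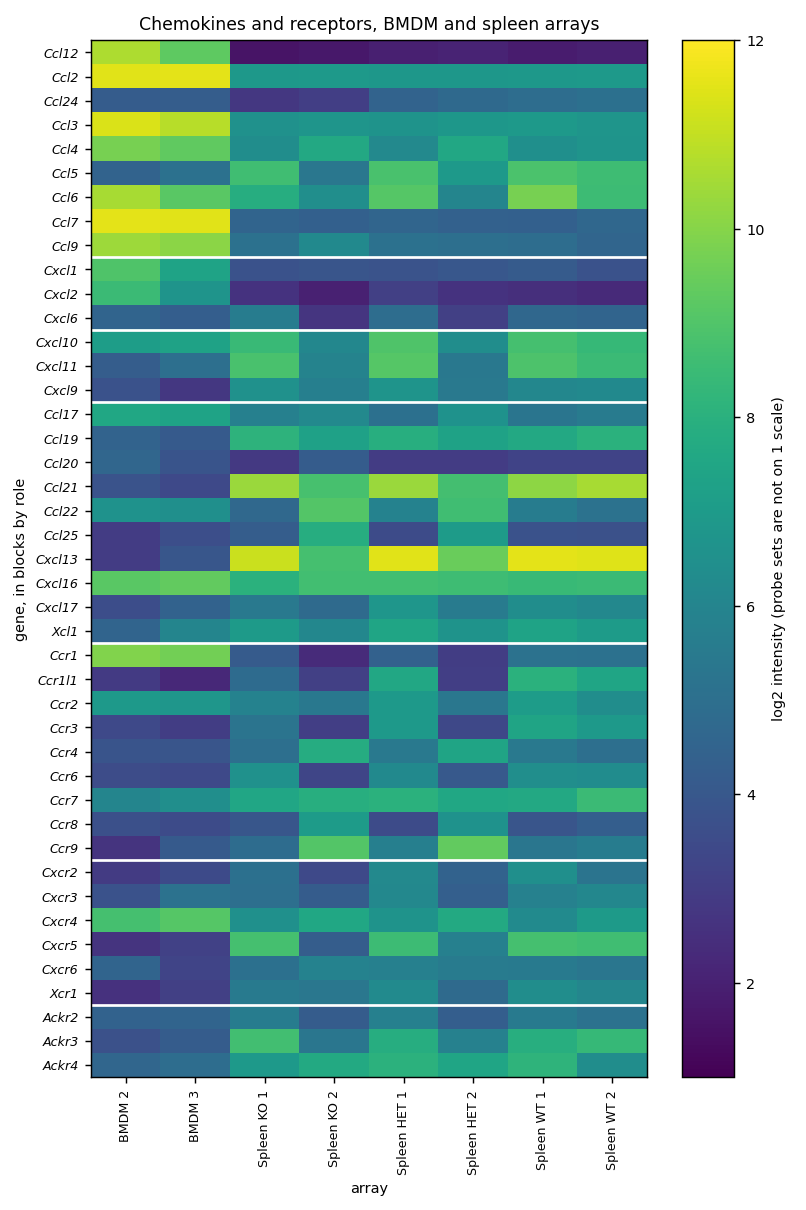
Log2 intensity of the 43 measured chemokine and receptor genes (rows, in white-ruled blocks by role: inflammatory CC ligands, CXCR2 ligands, CXCR3 ligands, lymphoid ligands, CC receptors, CXC and XC receptors, atypical receptors) on 2 BMDM and 6 spleen arrays (columns). The BMDM columns are bright for *Ccl2*, *Ccl7*, *Ccl3*, *Ccl9* and *Ccl12* and dark for *Cxcl13* and *Ccl21*, and the columns KO 2 and HET 2 of the spleen resemble each other.

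The promoter sequences of a few of these ligands are shown because *Cxcl1* and *Cxcl6* carry the same short element and differed in BMDM. RefSeq promoter windows (250 bases before to 50 after the annotated start, GRCr8) were at hand for 37 of the 48 genes. The element searched was GGGA and TTCC with any 2 bases between them (GGAA and TCCC when read on the other strand), a form of the kappa B sequence that NF-kB proteins bind. It was present in 1.3% of 33469 promoter windows of the same 300 bases and in 6 of the 37 member windows, namely those of *Ccl7*, *Ccr3*, *Cxcl1*, *Cxcl6*, *Cxcl10* and *Cxcl11*. A match describes the letters only. The stretches below run 5′ to 3′ along the gene, over the 100 bases before the start, with the element in capitals. In *Cxcl1* and *Cxcl6* the match can be read on both strands from the same place.
*Cxcl1*, chr14:17479322-17479421, minus strand: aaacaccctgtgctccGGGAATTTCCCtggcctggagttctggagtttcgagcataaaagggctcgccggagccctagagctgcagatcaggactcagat
*Cxcl6*, chr14:17596418-17596517, minus strand: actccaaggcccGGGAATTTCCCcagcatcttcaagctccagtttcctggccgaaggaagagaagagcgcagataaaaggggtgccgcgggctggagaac
*Ccl7*, chr10:67513995-67514094, plus strand: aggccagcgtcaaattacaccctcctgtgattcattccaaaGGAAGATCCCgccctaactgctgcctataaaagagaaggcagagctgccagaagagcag

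*Cxcl1* had 8.99 and 7.37 in BMDM and 4.15 and 3.77 in WT spleens (4.22, SE 0.537, adjusted p = 0.00422), above every spleen array. *Cxcl6*, with the same run of 11 letters, had 4.54 and 4.30 in BMDM and 4.66 and 4.53 in WT spleens (-0.18, SE 0.914), so its values lay side by side. *Ccl7*, the third sequence, had the second largest rise of the 43 genes.

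In the spleen no chemokine or receptor gene passed the test between KO and WT (0 of 43 by limma, when 0.0106% of all genes passed, lower, and 0.0% higher). *Csf1r* itself did not pass in this fit (-6.23, SE 0.504, adjusted p = 0.0786), so a gene that was not called may still differ. In simulated data the fit called 0 of 62 genes changed by 1 log2 unit, 12 of 50 changed by 2 and 37 of 48 changed by 4. At an unadjusted p under 0.05, 9 of the 43 genes were lower and 0 higher, against 4.92% and 1.69% of all genes. The median difference of the 43 genes was -0.37 and that of all genes 0.02. In 13 genes both KO arrays lay below both WT arrays and in 3 above, when groups did not overlap in 19.0% of all genes in each direction. The genes with the largest differences were receptors of myeloid cells and a pair of ligands, and genes high or low on 1 KO array alone. Fewer cells of a type and less RNA per cell cannot be told apart in such samples. The 2 KO spleens differed widely, as 4 of the 43 genes on KO 1 and 20 on KO 2 lay at least 1 log2 unit below the WT mean, and 1 on KO 1 and 7 on KO 2 at least 1 unit above.

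*Ccr1l1* had the largest difference. It had 4.84 on KO 1 and 3.08 on KO 2, 7.59 on HET 1 and 3.02 on HET 2, and 8.01 and 7.46 in WT spleens (log2 difference of KO minus WT -3.78, SE 0.617, adjusted p = 0.441). Both KO arrays, and the HET array with thymus transcripts, lay below WT. *Ccr3*, the eotaxin receptor of eosinophils, had 5.21 and 3.04 in KO, 6.97 and 3.39 in HET and 7.44 and 6.92 in WT spleens (-3.05, SE 0.711, adjusted p = 0.627). Its pattern over the arrays was the same, with KO 1 the higher of the KO spleens. On rat chromosome 8 the annotated span of *Ccr1l1* lies within that of *Ccr3*, between *Ccr1* and *Ccr2*, and the 2 are related receptors. Signal shared between their probe sets was not tested.

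*Ccl24*, an eotaxin and a ligand of CCR3, had 2.79 and 3.05 in KO, 4.49 and 4.74 in HET and 4.91 and 5.08 in WT spleens (-2.07, SE 0.213, adjusted p = 0.156). It differed from the receptors in that KO 1 and KO 2 were alike and that HET 2 lay near HET 1. Both KO values lay under the intensity of 20 that all HET and WT values passed, so the difference is on a scale where low values flatten. Of the arrays the filter counted, the WT spleens alone reached it. The gene thus entered the test through the group in which it was high. The 100 bases before its start hold neither strand of the kappa B form and are shown because this ligand was low on KO arrays of both sets.
*Ccl24*, chr12:26737323-26737422, plus strand: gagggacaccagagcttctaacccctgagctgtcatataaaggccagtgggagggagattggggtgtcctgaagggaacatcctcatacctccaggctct

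*Ccl6*, a rodent ligand of CCR1 made by myeloid cells, had 7.87 and 6.45 in KO, 9.11 and 6.004 in HET and 9.74 and 8.54 in WT spleens (-1.98, SE 0.723, adjusted p = 0.740). Both KO spleens lay below both WT spleens, and KO 2 was near HET 2. *Ccr1* had 4.18 and 2.35 in KO, 4.42 and 3.01 in HET and 5.14 and 5.09 in WT spleens (-1.85, SE 0.589, adjusted p = 0.707). In this gene too both KO spleens were below both WT spleens. The microglia marker list was also lower, with a mean over 11 genes of 6.28 to 7.18 in KO, 6.68 to 8.43 in HET and 8.26 to 8.45 in WT spleens. Its median KO minus WT difference was -1.82, beside -1.95 for the B cell list and -1.11 for the natural killer cell list. The median was -0.363 for the monocyte list, -0.769 for dendritic cells, -1.39 for erythroid cells and -2.09 for spleen stroma. The T cell, neutrophil and thymus lists went the other way (0.478, 0.427 and 2.51). The part of these lists in *Ccl6* and *Ccr1* was not tested.

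*Cxcr5* and *Ccl25* rested on KO 2. *Cxcr5* had 8.75 on KO 1 and 4.26 on KO 2, 8.52 on HET 1 and 5.80 on HET 2, and 8.74 and 8.64 in WT spleens (-2.18, SE 1.38, adjusted p = 0.777), so KO 1 lay level with WT. Without KO 2 its difference was 0.06. *Ccl25*, the ligand of CCR9 that draws precursors into the thymus, had 4.23 on KO 1 and 7.84 on KO 2, 3.53 on HET 1 and 7.02 on HET 2, and 3.76 and 3.72 in WT spleens (2.29, SE 1.13, adjusted p = 0.763). Without KO 2 its difference was 0.49. The genes that were 1 unit higher on KO 2, among them *Ccr9*, *Ccr8*, *Ccr4* and *Ccl22*, were shared with HET 2, since 6 of the 7 genes on KO 2 and of the 8 on HET 2 were the same, as were 17 of the 20 and 18 lower ones. KO 1 and HET 1 carried no thymus transcripts. On HET 1 none of the 43 genes lay 1 unit from the WT mean, with a range of -0.69 to 0.80, and on KO 1 those that did were *Ccr1l1*, *Ccr3*, *Ccl24* and *Ccl6*, lower, and *Cxcl6*, higher.

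The ligands with the brightest probe sets in WT spleens were *Cxcl13*, *Ccl21*, *Ccl6*, *Ccl5* and *Cxcl11*. *Cxcl13* had 11.10 on KO 1 and 8.76 on KO 2, against 11.55 and 11.44 in WT, and *Ccl21* had 10.35 and 8.80, against 10.11 and 10.56. *Ccl5*, a ligand of CCR1 and CCR3 made by T and NK cells, had 8.62 and 5.37 in KO and 8.88 and 8.59 in WT. *Cxcl11*, an interferon-induced ligand of CXCR3, had 8.85 and 5.93 in KO and 8.95 and 8.49 in WT. In all 4 genes KO 1 lay close to or among the WT arrays and KO 2, the array with thymus transcripts, lay below both by more than 1 unit. When KO 1 was left out, so that KO 2 stood alone for KO, 25 of the 43 genes were called, against 22.6% of all genes. When KO 2 was left out, 0 were, against 0.0639% of all genes.

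**Figure D2:**
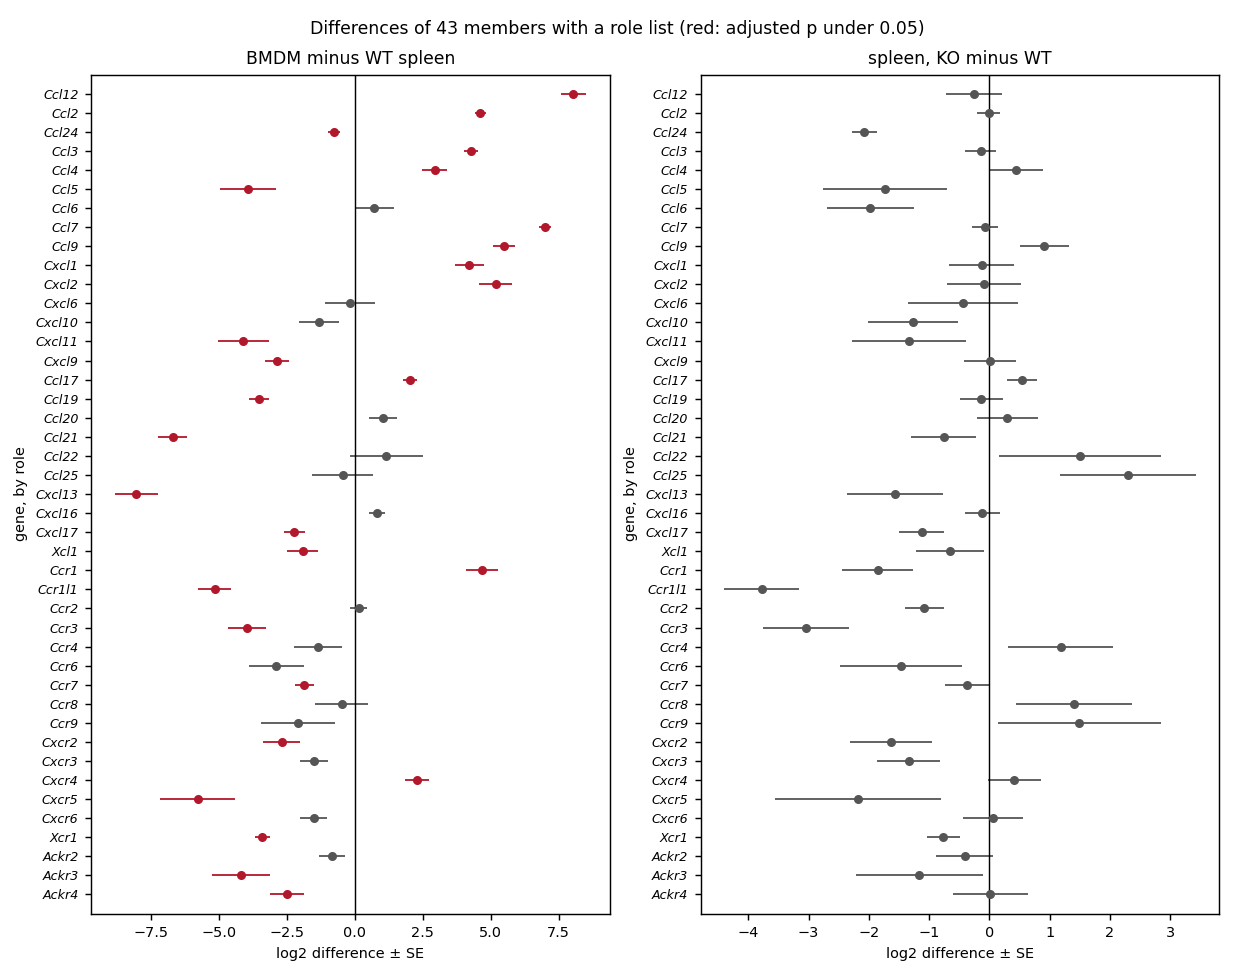
Log2 difference (point) with its SE (bar) of each measured gene, in the order of roles, for BMDM minus WT spleen (left) and for KO minus WT spleen (right), with genes at an adjusted p under 0.05 in red. On the left 28 of 43 genes are red, with *Ccl12* at 8.05 and *Cxcl13* at -8.04 at the ends, and on the right none is red.

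**Figure D3:**
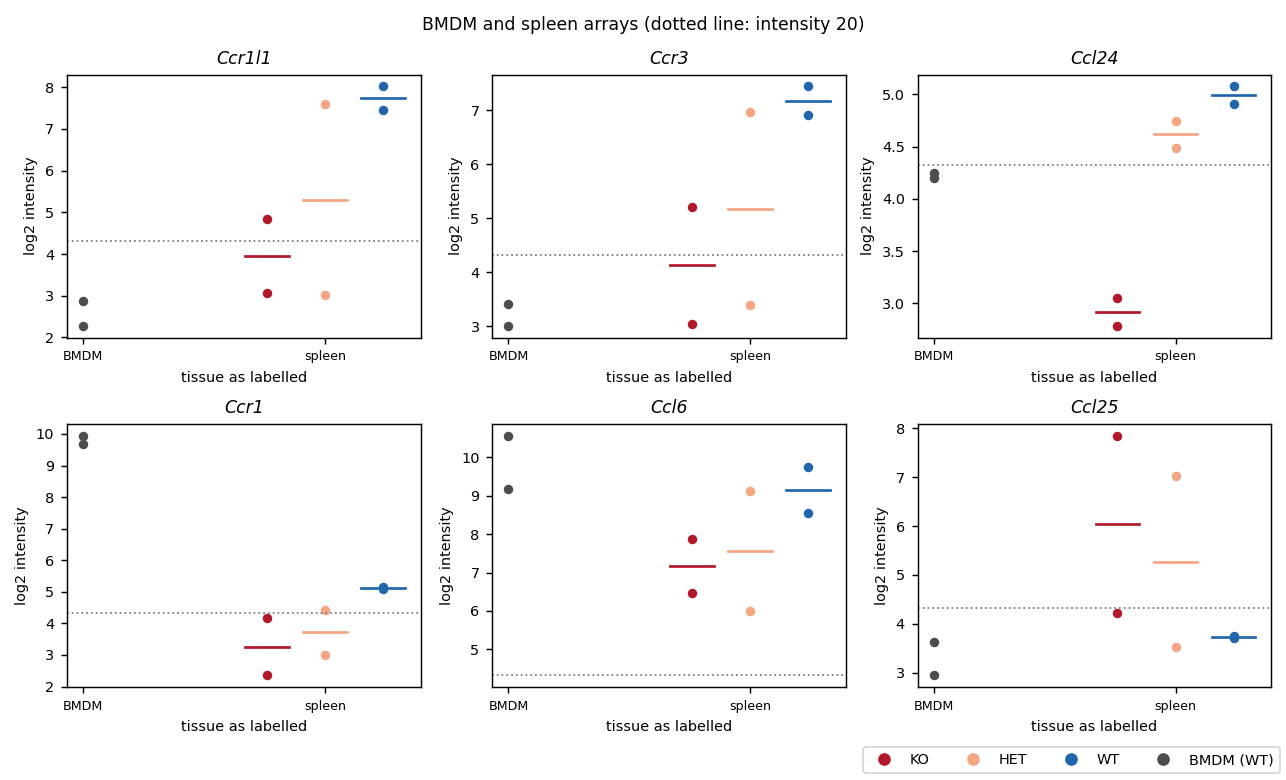
Log2 intensity of 6 genes on each BMDM and spleen array, with a bar at the mean of each genotype and a dotted line at an intensity of 20. The KO points of *Ccl24* lie together under the line, those of *Ccr1l1* and *Ccr3* are spread, and *Ccl25* is high on 1 KO and 1 HET array.

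In the brain set 23 of 29 measured genes differed in level between the 4 regions (moderated F test in limma, 3 degrees of freedom), below the 90.1% of all 10663 genes that did. The methods give 2 rats per genotype for these regions and the labels do not tie arrays to rats, so regions that share a rat entered as separate samples, and what this did to the p-values of this test and of the KO effect between regions was not tested. Of the 29 genes, 13 had their highest mean on the bulb-labelled arrays and 8 on the pituitary-labelled arrays. *Cxcl16*, a transmembrane ligand of CXCR6, had the range 5.93 to 7.05 in hippocampus (median 6.65), 4.997 to 6.48 in striatum (5.82), 7.97 to 8.41 on the bulb-labelled arrays (8.38) and 7.08 to 8.10 on the pituitary-labelled arrays (7.70). *Ackr3* had 6.48 to 7.01 in hippocampus (6.69), 5.82 to 6.28 in striatum (6.10), 7.36 to 8.20 on the bulb-labelled arrays (7.74) and 5.95 to 6.91 on the pituitary-labelled arrays (6.50). The bulb-labelled arrays, which carried anterior pituitary transcripts, were highest for *Ackr3* without overlap, while the pituitary-labelled arrays overlapped with both hippocampus and striatum. For *Cxcl16* hippocampus and striatum overlapped with each other, as did the bulb-labelled and pituitary-labelled arrays.

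*Cxcr1*, a neutrophil receptor of CXCL8 in human, reached an intensity of 20 in 1 region alone and entered the test through it. It had 4.76 to 6.50 in hippocampus (median 5.89) and lay between 2.46 and 3.48 on all 18 other arrays, with an adjusted p of 2.36e-09. *Cxcr4*, which guides interneurons and leukocytes to CXCL12, had 4.78 to 5.10 in hippocampus (4.87), 3.95 to 5.07 in striatum (4.49), 5.57 to 6.50 on the bulb-labelled arrays (6.13) and 6.06 to 7.07 on the pituitary-labelled arrays (6.32). Hippocampus and striatum overlapped, as did the bulb-labelled and pituitary-labelled arrays, and all 12 of these lay above all hippocampus and striatum arrays. *Xcl1*, the ligand of XCR1, stood at 5.68 on hippocampus KO 2 and 5.55 on WT 2, the arrays with choroid plexus transcripts, and at 3.89 to 4.23 on the other 4 hippocampus arrays.

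Between KO and WT, averaged over the regions, no chemokine or receptor gene passed the test (0 of 29 by limma, when 1.08% of all genes were called lower and 0.0844% higher). Of the 29 genes, 4 reached an intensity of 20 on all 24 arrays and 12 on 6 or fewer. Many brain values given here thus lie under that level, where differences between arrays carry little information. At an unadjusted p under 0.05, 5 genes were lower and 3 higher, against 5.35% and 4.07% of all genes. The groups did not overlap in 6 genes that were lower and 8 that were higher, against 20.9% and 16.6% of all genes. The median difference was 0.05 and that of all genes -0.01. Differences were small beside those of the microglia list, of which all 11 measured genes were called lower, with a median of -3.60 and a mean level of 3.14 to 3.79 on the KO, 6.17 to 7.47 on the HET and 6.25 to 7.58 on the WT arrays. *Cx3cr1*, the fractalkine receptor of microglia that the rule leaves out, had 2.26 to 4.42 on the KO, 7.42 to 9.001 on the HET and 7.09 to 9.25 on the WT arrays (-5.18, SE 0.166, adjusted p = 1.43e-05). Of 9 measured relatives outside the rule 3 were called lower, *Cx3cr1*, *Cmtm7* and the chemerin receptor *Cmklr1*, and of 21 measured genes of chemokine receptor signalling 2, *Lyn* and *Rac2*, with a median of -0.14 for that list.

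*Ccl24* was the 1 gene that passed in a single region. On the pituitary-labelled arrays, which carried olfactory bulb transcripts, it had 2.54 and 2.23 in KO, 3.83 and 3.18 in HET and 4.60 and 4.36 in WT (-2.09, SE 0.251, adjusted p = 1.21e-04), when 0.928% of all genes were called lower there and 0.00938% higher. KO, HET and WT arrays formed an order with no overlap. Without KO 2, which held olfactory mucosa transcripts, the difference was -1.94 (adjusted p = 0.00358). The 2 WT arrays are the ones of the 24 at an intensity of 20, so the gene entered the test through the group in which it was high. On the bulb-labelled arrays *Ccl24* had 2.34 and 2.09 in KO and 2.70 and 2.62 in WT, in hippocampus 2.81 and 2.79 in KO and 3.10 and 2.61 in WT, and in striatum 2.99 and 2.83 in KO and 3.72 and 2.89 in WT. KO lay below WT without overlap on the bulb-labelled arrays, and overlapped with WT in hippocampus and striatum. Averaged over the regions the difference was -0.75 (SE 0.149, adjusted p = 0.0909), and the test of a difference in the KO effect between regions gave an adjusted p of 0.0649, with 0 of 29 genes called and 0.15% of all genes.

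*Ccl7* came next on the pituitary-labelled arrays. It had 3.70 and 3.60 in KO, 6.04 and 3.47 in HET and 6.09 and 6.22 in WT (-2.51, SE 0.571, adjusted p = 0.0505). Both WT arrays and HET 1 were high and the other 3 low. These 3 high arrays and bulb-labelled WT 1 are the 4 of the brain set at an intensity of 20. No KO array reached it, so the gene entered the test through arrays on which it was high. In the other regions its range was 2.81 to 3.99 in KO and 2.92 to 4.55 in WT, and the mean over the regions differed by -0.49 (SE 0.149, adjusted p = 0.325). In striatum KO (3.71 and 3.77) lay above WT (2.98 and 2.92) without overlap, all under the intensity of 20. KO and WT values of *Ccl7* overlapped in hippocampus and on the bulb-labelled arrays. *Ccl2*, its neighbour on chromosome 10, had 7.79 and 6.99 in KO, 7.53 and 5.98 in HET and 8.10 and 8.21 in WT on the same arrays, with KO below WT. *Cxcl17*, *Ccl21* and *Cxcl6* stood at 6.39, 5.12 and 5.55 on pituitary-labelled KO 2, against 3.69, 3.26 and 2.49 on KO 1, where the olfactory mucosa list was at 7.78 and 4.54, and its part was not tested. No other member was called on the pituitary-labelled arrays, where at an unadjusted p under 0.05 3 genes were lower and 3 higher, against 3.82% and 2.3% of all genes. *Cxcl13* had 3.39 and 3.51 in KO, 4.42 and 4.66 in HET and 4.51 and 5.002 in WT there (-1.30, SE 0.529, adjusted p = 0.670), and on the bulb-labelled arrays 5.05 and 4.90 in KO, 5.08 and 6.11 in HET and 5.87 and 5.52 in WT. KO lay below WT in both, and the values overlapped in hippocampus (KO 2.06 and 2.76, WT 2.30 and 3.70) and striatum (KO 3.29 and 2.84, WT 2.86 and 3.40).

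*Ccl6* had the largest difference of the brain mean (-0.96, SE 0.294, adjusted p = 0.325). It had 4.45 and 2.68 in KO and 4.48 and 4.35 in WT hippocampus, 4.30 and 3.44 in KO and 4.04 and 5.64 in WT striatum, 3.74 and 3.43 in KO and 4.44 and 5.46 in WT on the bulb-labelled arrays, and 3.11 and 4.05 in KO and 4.41 and 4.04 in WT on the pituitary-labelled arrays. The groups were apart on the bulb-labelled arrays and overlapped in the other 3 regions. HET arrays of *Ccl6* spread over the range 2.93 to 5.84. *Ackr4*, which takes up CCL19, CCL21 and CCL25, differed the other way (0.66, SE 0.194, adjusted p = 0.292). It had 5.94 and 6.44 in KO and 5.70 and 5.51 in WT hippocampus, 6.59 and 6.76 in KO and 6.43 and 5.63 in WT striatum, 6.66 and 7.31 in KO and 5.95 and 6.94 in WT on the bulb-labelled arrays, and 5.49 and 6.61 in KO and 5.21 and 5.13 in WT on the pituitary-labelled arrays. KO lay above WT without overlap in all regions but the bulb-labelled arrays. HET lay above WT by 0.52 on average (SE 0.194, adjusted p = 1.00).

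**Figure D4:**
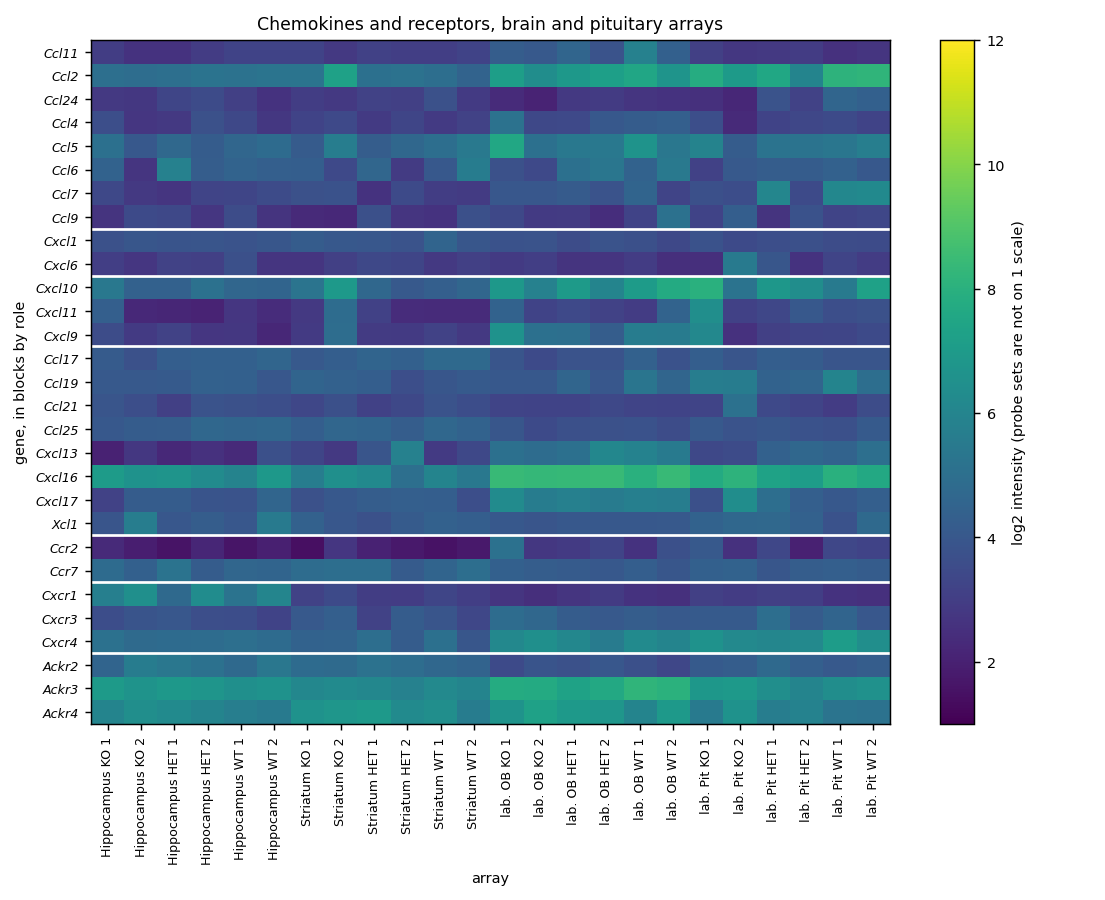
Log2 intensity of the 29 measured genes (rows, in white-ruled blocks by role) on the 24 brain and pituitary arrays (columns, KO, HET and WT within each region, with lab. OB for labelled olfactory bulbs and lab. Pit for labelled pituitary gland). *Cxcl16*, *Ackr3* and *Ccl2* are bright on the bulb-labelled arrays, *Cxcr1* is bright in hippocampus alone, and *Cxcl9* and *Cxcl11* are each brightest on 1 KO array in hippocampus, in striatum and on the pituitary-labelled arrays.

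The ligands of CXCR3, which interferon induces and which attract T and NK cells, differed between the 2 KO arrays of a region. *Cxcl11* had 4.34 and 2.27 in KO and 2.73 and 2.41 in WT hippocampus, 2.84 and 4.89 in KO and 2.34 and 2.34 in WT striatum, 4.45 and 3.20 in KO and 2.97 and 4.51 in WT on the bulb-labelled arrays, and 6.43 and 3.11 in KO and 3.65 and 3.74 in WT on the pituitary-labelled arrays (mean over the regions 0.85, SE 0.327, adjusted p = 0.464). *Cxcl9* had 3.56 and 2.86 in KO and 2.79 and 2.20 in WT hippocampus, 2.87 and 4.95 in KO and 3.15 and 2.81 in WT striatum, 6.61 and 5.05 in KO and 5.61 and 5.59 in WT on the bulb-labelled arrays, and 6.15 and 2.57 in KO and 3.31 and 3.47 in WT on the pituitary-labelled arrays (0.71, SE 0.279, adjusted p = 0.485). Of the KO arrays, hippocampus KO 1, striatum KO 2 and pituitary-labelled KO 1 stood above every other array of their region in both genes.

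*Cxcl10*, the third ligand of CXCR3, followed them on these arrays. It had 5.42 and 4.41 in KO and 4.62 and 4.53 in WT hippocampus, 5.22 and 6.97 in KO and 4.32 and 4.63 in WT striatum, 6.88 and 5.84 in KO and 7.02 and 7.71 in WT on the bulb-labelled arrays, and 7.99 and 5.17 in KO and 5.49 and 7.31 in WT on the pituitary-labelled arrays. KO was above WT in striatum and below it on the bulb-labelled arrays, both without overlap. *Ccl2* stood at 7.29 on striatum KO 2, against 5.22 on KO 1, 5.07 and 5.16 in HET and 4.99 and 4.50 in WT. On the bulb-labelled array KO 1, *Ccl5* was at 7.57 and *Ccr2*, the receptor of monocytes, at 5.12, against 5.35 to 6.63 and 2.60 to 3.67 in WT, where the T cell list was at 5.40, against 4.45 to 4.49 in WT, and the NK cell list at 5.54, against 3.84 to 4.12. The T cell list was at 4.37 on pituitary-labelled KO 1 and at 4.20 on striatum KO 2. The NK cell list on these arrays, and both lists on hippocampus KO 1, are not given here. The part of these lists was not tested.

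*Cxcl10* and *Cxcl11* are shown because they were high on the same arrays, lie next to each other on chromosome 14 and both carry the kappa B form given above. The *Cxcl10* stretch covers 150 bases and also holds GAAA and GAAA with 2 bases between them, the other strand of TTTC and TTTC so spaced, a part of the interferon-stimulated response element that is present in 3.92% of all promoter windows and in 2 of the 37 member windows (*Ccl19* and *Cxcl10*). *Cxcl9*, high on the same arrays and next to *Cxcl10* on the chromosome, is not among the genes with either form. Whether its window was among the 37 is not given here. The part of these forms in the values was not tested. Capitals mark the interferon form first and 2 places of the kappa B form after it in *Cxcl10*, and the kappa B form in *Cxcl11*.
*Cxcl10*, chr14:15988816-15988965, plus strand: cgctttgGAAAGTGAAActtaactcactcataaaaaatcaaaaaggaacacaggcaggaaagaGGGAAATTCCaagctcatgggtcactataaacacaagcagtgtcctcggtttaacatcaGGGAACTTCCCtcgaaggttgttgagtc
*Cxcl11*, chr14:15973628-15973727, plus strand: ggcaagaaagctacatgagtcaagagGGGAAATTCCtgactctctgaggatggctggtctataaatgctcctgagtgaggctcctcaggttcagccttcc

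**Figure D5:**
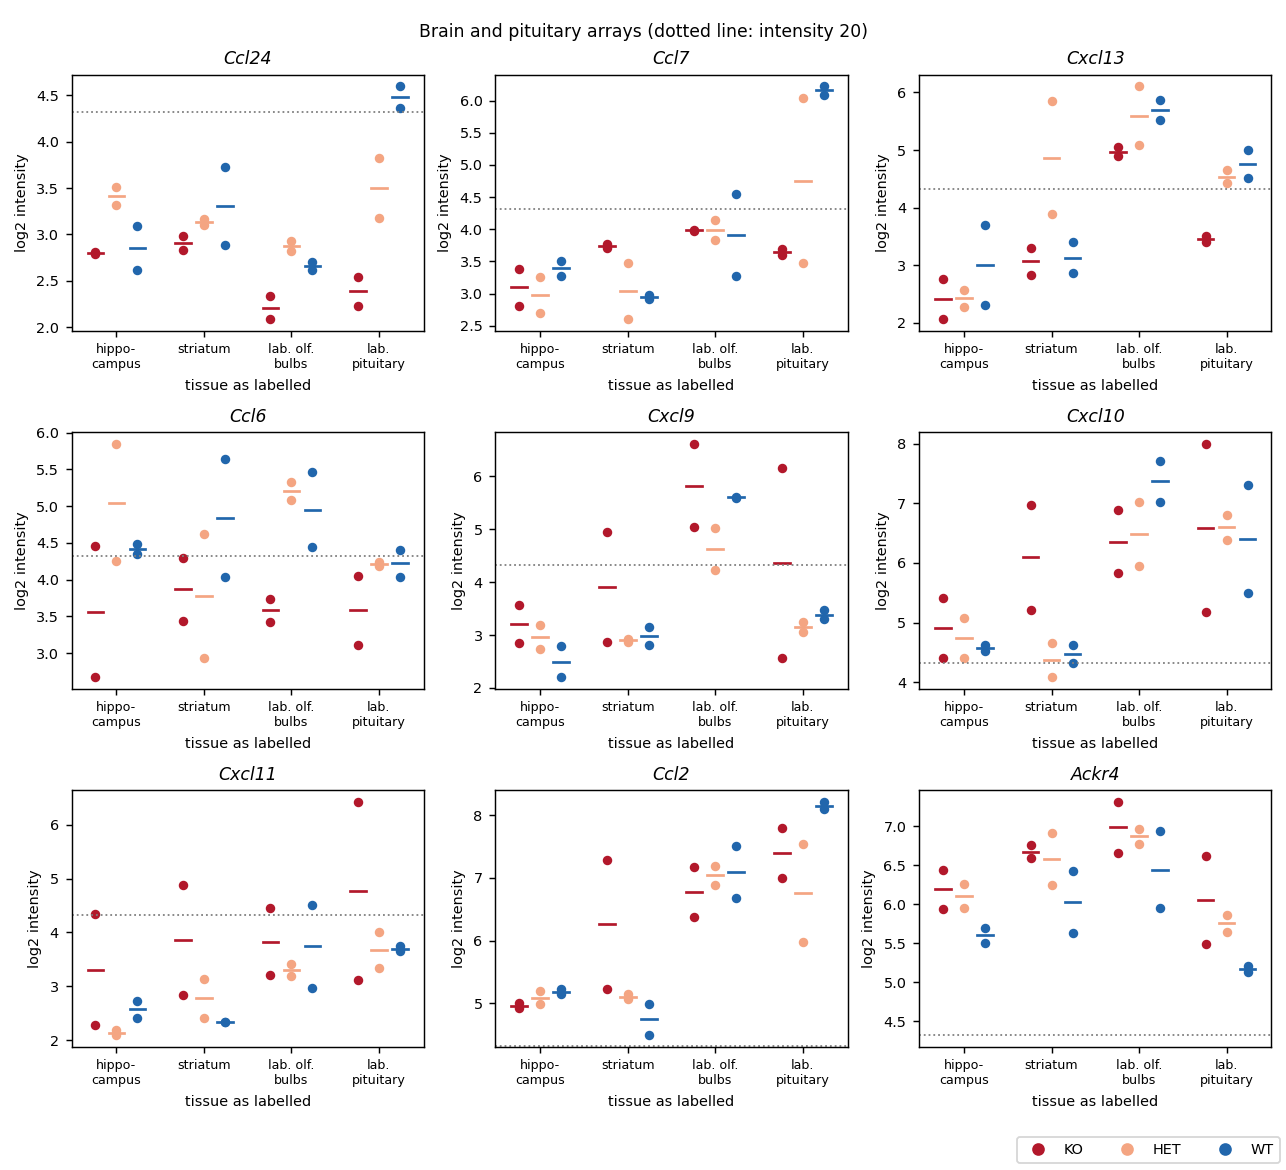
Log2 intensity of 9 genes on each of the 24 brain and pituitary arrays, by region and genotype, with a bar at each mean and a dotted line at an intensity of 20. *Ccl24* and *Ccl7* are low in both pituitary-labelled KO arrays, at 2.54, 2.23, 3.70 and 3.60, and 1 KO point of *Cxcl9*, *Cxcl10*, *Cxcl11* and *Ccl2* stands high in striatum.

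Between HET and WT none of the 29 genes passed the test (0 called by limma, when 0.0% of all genes were called in either direction). At an unadjusted p under 0.05, 2 genes were lower and 2 higher, against 2.0% and 1.29% of all genes. In 8 genes HET lay below WT without overlap and in 2 above, against 17.2% and 13.6% of all genes. *Ccl7* differed by -0.41 (SE 0.149), with HET 2 of the pituitary-labelled arrays at 3.47. In hippocampus and striatum alone 0 of 29 genes were called between KO and WT, when 0.6% and 0.628% of all genes were called lower and 0.00938% and 0.0563% higher, and on the bulb-labelled arrays 0, when 1.05% were called lower and 0.76% higher. The largest differences on the bulb-labelled arrays at an unadjusted p under 0.05 were those of *Ccl11* (-0.93, SE 0.346, adjusted p = 0.213) and *Ccl19* (-0.91, SE 0.304, adjusted p = 0.160). *Ccl11* reached an intensity of 20 on 3 arrays of the brain set, the bulb-labelled WT arrays and HET 1. It thus entered the test through arrays on which it was high, and both bulb-labelled KO values (4.25 and 4.09) lay under that level. In hippocampus the largest such differences were those of *Ccl17* (-0.54, adjusted p = 0.522) and *Ccl25* (-0.51, adjusted p = 0.528). In striatum they were those of *Ccl17* (-0.59, adjusted p = 0.496) and *Ccl2* (1.51, adjusted p = 0.506).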

How the data were processed

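Total RNA of BMDM and of 5 tissues was measured on 32 arrays (Affymetrix Rat Gene 2.1 ST). The authors normalized the arrays with RMA in R/Bioconductor (version not given in the sources used here) and deposited intensity values on a linear scale for 36685 probe sets. Pairs of arrays shared 61 to 161 exact values within the spleen and BMDM set, 8 to 132 within the brain set and 0 to 1 across, so the sets were kept apart. The median intensity was 16.8 to 19.9 and 15.1 to 21.7 per array. The number of arrays limits the precision, and since the labels do not tie replicate numbers to rats, p-values measure only the spread between these samples.

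The intensities were put on the log2 scale. Of the probe sets, 14824 had 1 gene symbol, 829 had several and 21032 had none in the annotation. A gene was tested if at least 1 array had an intensity of 20 (HET spleens not counted). limma 3.58.1 in R 4.3.3 with Benjamini-Hochberg adjustment over all genes and a threshold of 0.05 was used. The spleen fit held KO, WT and BMDM arrays, the brain fit averages over the 4 regions for each replicate number within a genotype, and the fit by region all 24 arrays. The fits were tested on simulated data. Tables and figures were made with Python 3.11.15, numpy 2.4.6, pandas 2.3.3 and matplotlib 3.10.9.

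The members, role lists and marker lists were chosen with earlier results of these data known. Genes named by rule were those called between genotypes and the 6 largest KO minus WT differences in spleen and in the brain mean. Added to them were the 5 with the highest WT mean in each tissue and the 5 largest BMDM differences in each direction. Some of these are given as ranges or for a part of the arrays. Others named were chosen after their values were seen. Alternatives were other filters, the mean of all probe sets, a trend with robust variance, repeated quantile normalization, a replicate block, the methods' t-test, littermates as the control, other sets of arrays and leaving out each replicate.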

Additional observations from a re-analysis of the deposited data

Results flagged for a closer look

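In 3 of the 27 genes tested in both sets, against 6.53% of all genes, every KO value lay on opposite sides of WT in the spleen and in the brain mean, a difference that was not tested because the sets were normalized apart. *Ccl17* had a KO minus WT difference of -0.34 in the brain mean and 0.53 in the spleen. *Ccl25* had -0.13 in the brain mean and 2.29 in the spleen, where KO 2 with thymus transcripts carried it. *Cxcr3*, the receptor of CXCL9, CXCL10 and CXCL11, had 0.34 in the brain mean and -1.34 in the spleen, with 5.02 and 4.22 on the KO and 5.83 and 6.10 on the WT spleens. None of the 3 passed the test in either tissue.

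HET 2 of the spleen, which enters none of the tests above, stood more than 2 log2 units above the higher WT spleen in 4 genes. *Ccr9* was at 9.34, against 5.33 and 5.64 in WT, *Ccl25* at 7.02, against 3.76 and 3.72, *Ccl22* at 8.63, against 5.64 and 5.14, and *Ccr8* at 6.63, against 3.91 and 4.28. These 4 genes were also high on KO 2, at 9.05, 7.84, 9.08 and 7.04, the other spleen array with thymus transcripts. The part of those transcripts was not tested.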

How the results depend on the processing

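Counts of called genes moved in several settings. With each replicate left out in turn, they ranged between 0 and 25 for KO minus WT spleens (25 without KO 1, which leaves the array with thymus transcripts; all genes 0.0% to 22.6%), 15 and 19 for BMDM minus WT spleens (10.2% to 21.2%), 0 and 2 for KO minus WT in the brain mean (0.685% to 1.13%), 0 and 1 in striatum (0.347% to 0.506%), 0 and 2 on the bulb-labelled arrays (0.694% to 6.29%), 1 and 4 on the pituitary-labelled arrays (0.628% to 2.0%), and 0 and 1 for the KO effect between regions (0.0% to 0.75%). A lone remaining array is assumed to vary like the other groups. In the brain mean 1 gene was called with hippocampus and striatum only (*Cxcl11*, against 0.656% of all genes). In hippocampus and striatum it had 4.34 and 2.84 on KO 1 and 2.27 and 4.89 on KO 2. No WT or HET array of these regions reached the intensity of the main filter for it. Averaging by replicate number put 1 high array into each KO mean, which hid the spread within a region. No conclusion is drawn from that call. In the brain mean 2 genes were called without the 8 arrays carrying another tissue (*Ccl24* and *Cxcl11*, against 1.31% of all genes). These arrays are the 5 of hippocampus and the pituitary-labelled set and the 3 of striatum given above. They include the lower KO array of *Cxcl11* in each of these regions. In that fit HET was averaged over the regions that kept it. On the pituitary-labelled arrays 2 were called with no filter (*Ccl24* and *Ccl3*) and 0 with an intensity filter at 50, which *Ccl24* did not pass. For the level between regions 14 of 17 tested genes were called with that filter, against 93.4% of all genes. The difference of *Cxcr5* in the spleen ranged between -4.43 without KO 1 and 0.061 without KO 2, where its sign was reversed. In the other settings *Ccl24* on the pituitary-labelled arrays kept an adjusted p between 3.17e-05 and 0.00467. Same-numbered KO and WT arrays did not deviate together in all tissues (correlations between -0.273 and 0.447), nor did HET with WT or KO in all tissues (-0.189 to 0.843, the highest for KO and HET spleens, where both number 2 arrays carry thymus transcripts). The numbers were therefore not taken to pair samples of different genotypes. The brain mean did join arrays of the 4 regions by replicate number, though the labels do not say that these share a rat. What this matching did to the SE and p-values of the brain mean was not tested. With the replicate number as a block 1 gene, *Ccl24*, was called for the KO effect between regions and no other count moved by over 1.5 times. The cause of these changes was not tested.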
